A study of Homo sapiens with 6 samples.

Results

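The regions described here are the peaks of RNA recovered with an antibody against RBM8A on the long arm of chromosome 19 in AGS, an established human gastric adenocarcinoma cell line. They are all peaks of the 3 deposited lists on chromosome 19 whose summit lies at or above position 25000000 of hg19, apart from 15 peaks that overlap the ACTN4 gene at chr19:39138327-39221170. This gave 279 peaks of 5437, with 85 of 1480 in replicate 1, 107 of 2155 in replicate 2 and 87 of 1802 in replicate 3. The series has 6 samples of untreated, wild type AGS cells, 3 immunoprecipitates with anti-RBM8A antibody and 3 inputs, all with the same batch label, and only the immunoprecipitates have peak lists that were analysed here. No sample used a control antibody, and specific binding to RBM8A cannot be told apart from nonspecific retention of RNA. Nothing in the labels says that the replicates were separate cultures, and the spread between them may be technical.

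RBM8A, also called Y14, pairs with MAGOH in the core of the exon junction complex. The complex is placed on RNA by splicing, upstream of the junction of neighbouring exons, and helps to direct export, translation and nonsense-mediated decay of the spliced RNA. Chromosome 19 is a gene-dense chromosome, and its long arm carries several clusters of KRAB zinc finger genes. These encode DNA-binding repressors, and in most of them the whole array of zinc fingers lies in a single long last exon. The clusters lie between stretches of other, mostly unrelated genes.

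The label of the arm held in the data. Position 25000000 falls in band p11. From there on, 0 peaks were listed in p11 and q11, so that every one of the 279 peaks lay in bands q12 to q13.43. The build also showed on this arm. Chromosome 19 ends at 59128983 in hg19 and at 58617616 in hg38, the build that the submitters' notes name. Of the peaks on the arm, 3, 2 and 2 in replicates 1, 2 and 3 lay past the end of the hg38 chromosome, the last of them ending at 58905915, and 0 peaks lay past an hg19 end. Positions are therefore given in hg19, counted from 1. The lists give no strand. The gene table used here is of GRCh38, so genes, exons, introns and UTRs were not assigned to peaks, and their sequences could not be read.

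The arm was dense in peaks in each list, yet less so than the short arm of the same chromosome. It held 2.49, 3.14 and 2.55 peaks per Mb in replicates 1, 2 and 3, a mean of 2.72 ± 0.356 (SD, n = 3). The short arm held 2.80, 4.64 and 3.20, and the density of the long arm was lower in 3 of 3 lists, with a mean difference of -0.822 ± 0.616 peaks per Mb (long minus short arm, SD, n = 3). Chromosome 20 held 1.21, 2.03 and 1.41 peaks per Mb and chromosome 17 held 0.985, 1.47 and 1.37, both below the long arm in 3 of 3 lists. The mean differences were 1.18 ± 0.0961 peaks per Mb from chromosome 20 and 1.45 ± 0.248 from chromosome 17 (SD, n = 3). Each comparison of the arm was paired within a list and tested by an exact two-sided sign-flip permutation test over the 3 replicates, which cannot give a p under 0.25. The p was 0.25 in each of the 16 comparisons run, as was the value after Benjamini-Hochberg adjustment, so none could pass 0.05, and the differences are given by their size and by the number of lists that show them. Without replicate 2 the difference from the short arm was -0.480, and with a −log10 q of 5 or more in every list it was -0.183. With peaks within 10 kb counted once, the differences from chromosomes 20 and 17 were 0.701 and 0.837, and with the q filter 0.361 and 0.503. The length of the arm was counted from position 25000000, so it takes in the stretch of p11 and q11 without peaks. Counted from 28 Mb, the differences were -0.559 from the short arm and 1.44 and 1.71 from chromosomes 20 and 17. Density was not adjusted for the number of genes or their expression.

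Along the arm, peaks lay in bands q13.11 to q13.2, q13.32 to q13.33 and q13.42, with sparse bands between them. Band q13.42 was the fullest, with 4.44, 6.67 and 6.30 peaks per Mb in replicates 1, 2 and 3. Band q13.33 followed with 5.88, 6.76 and 4.12, then q13.32 with 4.29, 6.07 and 4.64, and q13.2 with 4.47, 5.32 and 4.04. The ranges of these 4 bands overlap, so their order is not settled by 3 lists. The sparse bands were q13.31 with 0, 0 and 1 peaks in replicates 1, 2 and 3, q13.41 with 0, 3 and 1, q12 with 0, 1 and 2, and q13.43 with 3, 2 and 2. Each of these 4 bands stayed below each of the 4 fullest in every list. Of the 35 windows of 1 Mb on the arm, 25 held a peak in some list, 18 held one in every list and 10 held none.

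**Figure D1:**
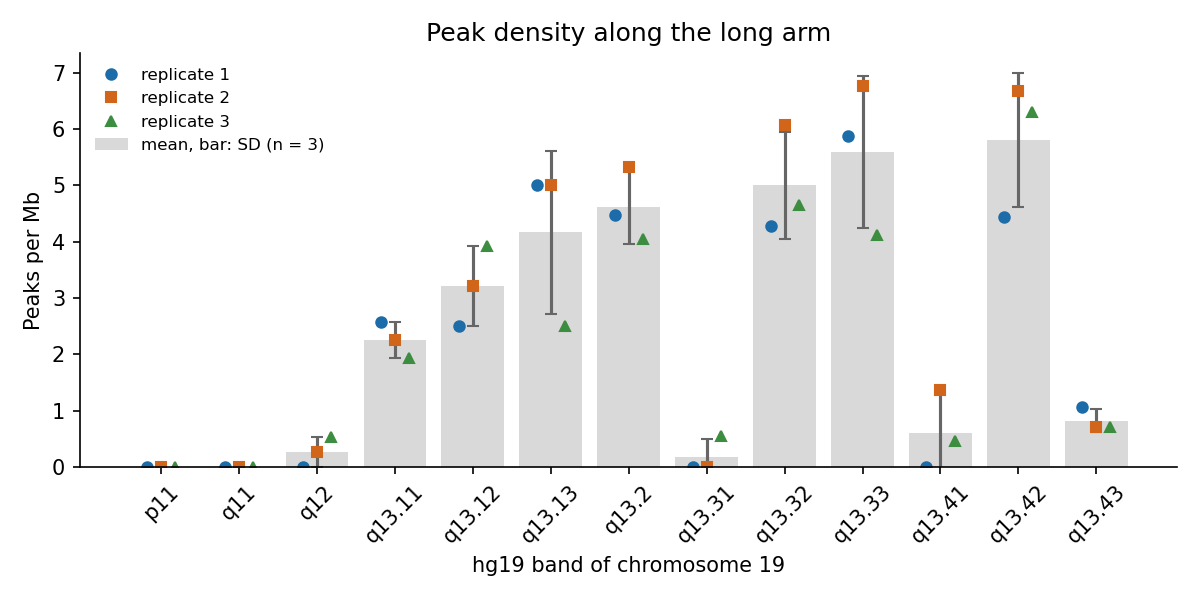
Peaks per Mb in each hg19 band of chromosome 19 from position 25000000. Points are the 3 replicates, bars their mean and lines their SD (n = 3), which is clipped at 0. Bands q13.31, q13.41 and q13.43 hold at most 1.36 peaks per Mb in any list, against at least 4.04 in q13.2, q13.32, q13.33 and q13.42.

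The longest stretches without any peak in the 3 lists showed the same alternation. The longest ran to 30313662 from 25000001, which is the cutoff used here and not the end of a peak. These 5.31 Mb include the centromeric bands p11, from the cutoff on, and q11. The next ran from 30501154 to 33096831, in q12 and q13.11. The third ran from 56203173 to 58758131, 2.55 Mb that make up most of q13.43. The fourth was 1.93 Mb from 42746335 to 44676313, across the border of q13.2 and q13.31. The fifth was 1.23 Mb from 36612276 to 37838190, in q13.12, and the next 1.22 Mb from 51301560 to 52521660, mostly in q13.41.

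By mean peak count, the fullest window of the arm was that from 41 to 42 Mb, in band q13.2, with 8, 10 and 9 peaks in replicates 1, 2 and 3. Most of them belonged to a single cluster of 41021 bp, from 41770444 to 41811464, in which neighbouring peaks lay no more than 10 kb apart. The cluster held 7, 8 and 7 peaks, the most of the 91 clusters that this rule gave on the arm. Peaks covered 57.6%, 53.9% and 63.3% of its length. They formed 8 union regions, in which overlapping peaks of the lists are joined, and 5 of the 8 were found in all 3 replicates. Counted as clusters within each list rather than as peaks, the window held a mean of 2.33, below the 4.33 of the window from 39 to 40 Mb. Both windows were chosen with their counts known, so the counts are a description.

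Within the cluster, the strongest region by rank was chr19:41782159-41783542, a narrow region with peaks of 944, 1336 and 1384 bp. The authors' caller gave it a fold of 4.90, 7.75 and 7.44 in replicates 1, 2 and 3, or 6.69 ± 1.56 (SD, n = 3). Fold is the pileup of fragments at the summit over the expected level, after 1 is added to both, and the sample behind the expected level is not stated in the labels or notes. Expected levels were set separately in each list, so regions were ranked by fold within a list and the ranks averaged. This region had the highest mean percentile rank by fold of all regions of the arm found in 3 replicates. Its summit pileups, recovered from the fold and p-value of each peak, were 6, 12 and 10 fragments, and its 3 summits lay within 81 bp. Replicate 1 was thus the lowest of the 3 on both measures.

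The other 4 regions of the cluster found in all 3 replicates had lower folds in each list. The region chr19:41774190-41780132 had best folds of 4.74, 3.38 and 4.53, and its peaks started at 41774209, 41774193 and 41774190 in replicates 1, 2 and 3. Its deepest summits held 19, 26 and 29 fragments. In chr19:41787105-41800120, 1, 3 and 2 peaks had best folds of 3.28, 4.39 and 4.45, and a peak of 11510 bp in replicate 1 met 3 separate peaks of replicate 2. The region chr19:41800511-41804863 had folds of 3.23, 2.57 and 7.15 with pileups of 20, 24 and 16. Replicate 3 had the fewest fragments and the highest fold there. Its summit lay at 41804120, though, against 41800565 and 41800544 in replicates 1 and 2, so these values are from different positions. The last, chr19:41810011-41811464, had folds of 2.56, 2.58 and 1.60 with pileups of 20, 18 and 62. Here replicate 3 had an expected level of 38.3, against 7.20 and 6.37 in replicates 1 and 2. Its summit, at 41810013, lay before the starts of the other peaks, at 41810487 and 41810484. These values are thus from different positions and do not compare the lists at 1 site.

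The window from 39 to 40 Mb was less full once the ACTN4 peaks were set aside. It held 6, 6 and 5 peaks, and the ACTN4 interval held a further 5, 6 and 4. Without them it shared the seventh place among the 35 windows, and a mean of 5.67 ± 0.577 peaks (SD, n = 3) became 10.7 with them. By the 10 kb rule the peaks lay in 4 clusters, and 2 of 10 union regions were found in all 3 replicates. Of these, chr19:39867125-39868698 had folds of 4.33, 5.69 and 6.55 with pileups of 7, 8 and 8. It was the fifth strongest region of all 3 replicates on the arm. The other, chr19:39111207-39116687, lies just before the ACTN4 interval and had folds of 4.22, 2.95 and 3.52 with pileups of 5, 14 and 4. In the GRCh38 table the protein-coding genes listed next to ACTN4 are EIF3K, which encodes a subunit of a translation initiation factor, before it and CAPN12, a calpain gene, after it. Whether any peak lies in either was not determined. Further along, a peak of 7387 bp in replicate 2 (fold 6.93) and one of 7048 bp in replicate 3 (fold 3.46) shared chr19:39936454-39943840, where replicate 1 had no peak.

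**Figure D2:**
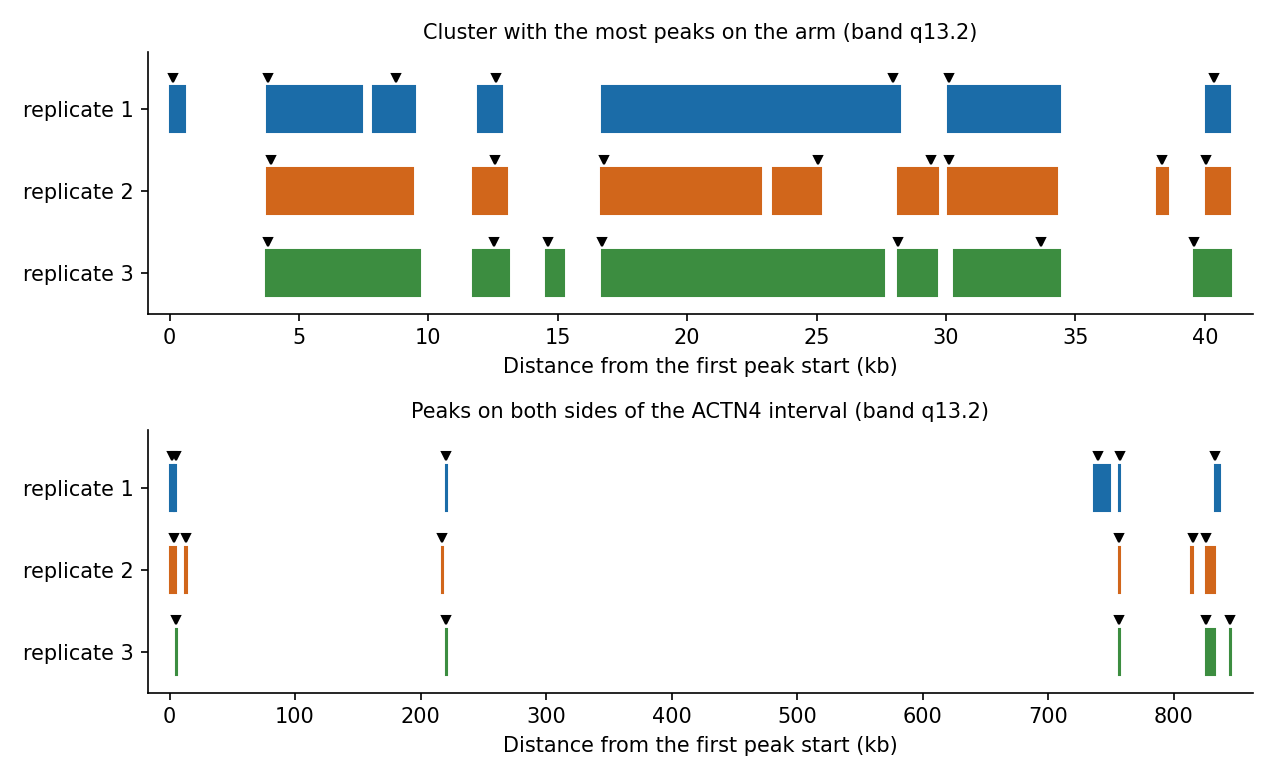
Peaks of each replicate (bars) and their summits (triangles) in the cluster that starts at 41770444 (upper panel) and in the window from 39 to 40 Mb without the ACTN4 peaks (lower panel), by distance from the start of the leftmost peak. Of the 8 union regions of the cluster, 5 hold a peak in every list and 3 in a single list, whereas the 6, 6 and 5 peaks of the other window lie in 4 clusters by the same rule.

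The windows in which the zinc finger gene clusters of this arm lie were set in whole Mb from general knowledge, not from an annotation, and they hold other genes too. They run from 35 to 39, 44 to 45, 52 to 55 and from 56 Mb to the chromosome end. Together they held 23, 27 and 27 peaks in replicates 1, 2 and 3, or 2.07, 2.43 and 2.43 per Mb. The rest of the arm from 28 Mb held 3.10, 4.00 and 3.00 per Mb, which is higher in 3 of 3 lists, and the zinc finger windows minus the rest averaged -1.06 ± 0.501 peaks per Mb (SD, n = 3; exact permutation p = 0.25, the smallest possible). The direction depends on the window edges. With each window 0.5 Mb wider on each side it turned, to a mean of 0.124 peaks per Mb more in the zinc finger windows, and with each 0.2 Mb narrower the difference was -1.11. In the GRCh38 table, 145 of 655 protein-coding genes listed after ACTN4 on this chromosome have symbols of zinc finger families (ZNF, ZFP, ZSCAN, ZIM or PEG3), or 22.1%, against 120 of 795 (15.1%) before it. On the whole chromosome it is 265 of 1451 (18.3%). ACTN4 lies within the long arm, so the genes before it are those of the short arm and of the first part of the long arm. These shares therefore measure neither the arm nor its zinc finger windows.

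Peaks were unevenly spread within these windows. The window from 35 to 39 Mb held 12, 13 and 13 peaks, but 36612276 to 37838190, well inside it, held none in any list. The window from 44 to 45 Mb held 0, 0 and 1. That from 52 to 55 Mb held 3, 9 and 8, in 18 union regions, and 0 of these had a peak in every list. The window from 56 Mb held 8, 5 and 5, all of them ending by 56203172 or starting after 58758131, with the third longest peak-free stretch of the arm between. Of the peaks in the zinc finger windows, 43.5%, 33.3% and 33.3% were in both other lists in replicates 1, 2 and 3. Elsewhere on the arm the shares were 41.9%, 31.25% and 38.3%, lower in replicates 1 and 2 and higher in replicate 3. Of all 50 union regions in the zinc finger windows, 8 (16.0%) were found in all 3 replicates, against 23 of 121 (19.01%) elsewhere on the arm.

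These 8 regions lay toward the ends of the first and last windows. In the first window, chr19:35504172-35506824 had folds of 9.14, 4.80 and 3.04 with pileups of 12, 15 and 16, so that fold and pileup ordered the lists in opposite ways. The region chr19:35648390-35655103 had best folds of 5.62, 3.64 and 6.81 with pileups of 26, 26 and 19. The region chr19:36142192-36149363 had best folds of 4.57, 3.34 and 4.17, and chr19:38774404-38779570 had 6.25, 2.65 and 6.71. Replicate 2 was lowest in 3 of these 4 regions. In the last window, chr19:56166423-56171933 had folds of 9.21, 7.39 and 3.85, or 6.82 ± 2.73 (SD, n = 3). A neighbour at chr19:56196787-56200733 had 3.72, 13.6 and 4.43 with summits within 10 bp of each other. The fold of 13.6 in replicate 2 was the highest of any peak on the arm, and its pileup of 18 fragments was close to the 17 of replicate 3, where the expected level was 3.06 against 0.3997. Near the chromosome end, chr19:58898654-58899552 had folds of 5.53, 5.71 and 4.43 and chr19:58904469-58905915 had 4.83, 2.32 and 5.26.

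Outside these windows, the regions of all 3 replicates with the highest mean rank by fold were spread along the arm. The region chr19:48254832-48256047 had the most even folds of the 10 highest ranked, 5.96, 5.72 and 5.92 (5.87 ± 0.131, SD, n = 3), with pileups of 10, 7 and 10, and its peaks started within 5 bp of each other. The region chr19:34663846-34685443 was the widest on the arm, at 21598 bp. It was made of 3, 2 and 1 peaks with best folds of 4.88, 6.43 and 8.01, and in replicate 3 a single peak of 21435 bp spanned nearly all of it. The region chr19:49601926-49605581 had folds of 4.88, 6.43 and 7.28. The others were chr19:47104668-47107469 with 4.82, 4.73 and 7.15, chr19:50784963-50792568 with 5.42, 5.72 and 4.37, and chr19:55742191-55748097 with 7.03, 3.64 and 5.94. In all 10 the summit pileups lay between 5 and 18 fragments. The best peak of chr19:55742191-55748097 in replicate 3 had 11 fragments, for which the exact 95% Poisson interval is 5.49 to 19.7. Counts of this depth are thus imprecise, and no interval was computed for a fold.

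The strongest peaks by fold found in a single replicate were nearly as high. They were chr19:46027834-46028459 in replicate 3 with a fold of 7.15 and 14 fragments, chr19:46334791-46338348 in replicate 2 with 7.14 and 9 fragments, and chr19:55656916-55658249 in replicate 2 with 6.95 and 10 fragments. That the other lists hold no peak there does not show that the RNA was absent from them.

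Most of the deepest summits of the arm had low folds beside high expected levels. The deepest of all was an exception. It lay at chr19:49469098-49469660 in replicate 2, with 153 fragments (95% Poisson interval 130 to 179) over an expected level of 32.0 and a fold of 4.66. Replicate 1 had 117 fragments there (96.8 to 140) with a fold of 3.70, and replicate 3 listed no peak. Their −log10 q-values, 28.7 and 49.9 in replicates 1 and 2, were the highest on the arm. The region chr19:49999717-50002741 was deep in all 3 lists, with 95, 108 and 123 fragments but folds of only 2.18, 1.88 and 1.79. The region chr19:55898195-55899662 had 51, 151 and 41 fragments with folds of 1.70, 1.38 and 1.87, the lowest mean rank by fold of the 31 regions. Its summit in replicate 2, at 55899399, lay past the ends of the peaks of replicates 1 and 3, both at 55899113. Next to chr19:49999717-50002741, chr19:49993539-49995038 held 59 fragments in replicate 1 and 69 in replicate 2, with no peak in replicate 3. These intervals describe counting error alone. Without molecular identifiers reads need not be separate molecules, and a summit is by definition the highest point of its peak.

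**Figure D3:**
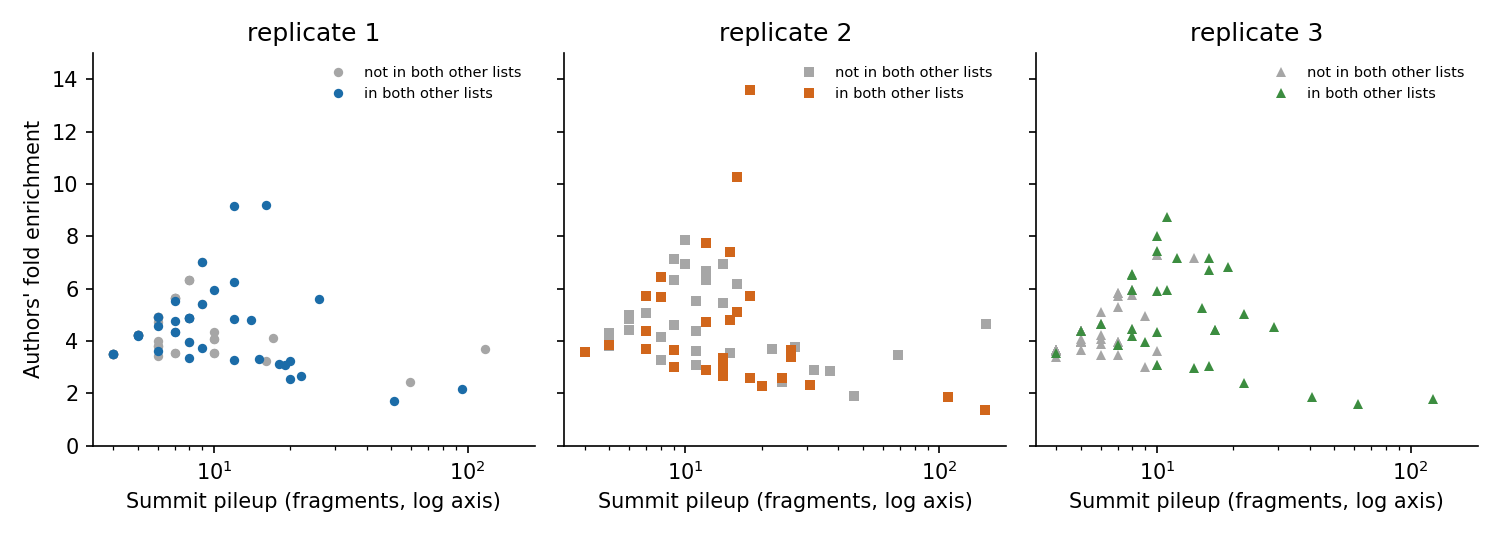
The authors' fold enrichment against the summit pileup (log axis) of each peak on the arm, by replicate. Coloured points are peaks overlapped in both other lists and grey points are the rest. Peaks with at least 30 fragments (4, 8 and 3 per list) have folds under 5, and the highest folds, up to 13.6, lie between 10 and 20 fragments.

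Over all members, folds ran from 1.70 to 9.21 in replicate 1, 1.38 to 13.6 in replicate 2 and 1.60 to 8.73 in replicate 3. Members with a fold of 5 or more numbered 17, 37 and 25, or 20%, 34.6% and 28.7%, against 16.2%, 26.7% and 20.9% of all peaks of the lists. The median fold was 4.22, 4.29 and 4.22, above that of all other peaks in 3 of 3 lists by 0.0703, 0.141 and 0.249. Chromosome 20 also had medians of 4.22, 4.29 and 4.22. The short arm had 4.30, 4.29 and 3.97, and chromosome 17 had 3.79, 3.81 and 3.96. The median summit pileup on the long arm was 7, 8 and 7 fragments, against 6 in the rest of each list. It was 8, 8 and 7 on the short arm, 7, 6.5 and 6 on chromosome 20 and 6, 7 and 6 on chromosome 17. Members with a −log10 q of 5 or more numbered 14, 29 and 27, or 16.5%, 27.1% and 31.0%, against 13.4%, 15.6% and 16.9% of all peaks. The excess was small in replicate 1, and the arm was higher than the rest in 3 of 3 lists (exact permutation p = 0.25, the smallest possible). Restricting every list to that −log10 q turned the fold difference, to a mean of -0.091 (arm minus rest). Expected levels on the arm were less often at the lowest level of the list, in 41.2%, 26.2% and 28.7% of members against 51.0%, 43.5% and 40.7% of other peaks.

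Peaks of the arm were narrower than the rest. Their median width was 1692, 1300 and 1119 bp in replicates 1, 2 and 3, against 1875, 1573.5 and 1868 bp in all other peaks, lower in 3 of 3 lists, with a mean difference of -402 ± 304 bp (arm minus rest, SD, n = 3). The difference was -749 bp in replicate 3, and without that replicate the mean was -228 bp. Widths ran from 445 to 13364, 362 to 13368 and 391 to 21435 bp. Peaks of at least 10 kb numbered 5, 1 and 2 on the arm, or 5.88%, 0.935% and 2.30%, against 11.2%, 8.12% and 9.05% of all peaks. Members covered 243, 236 and 182 kb of the arm in all, or 0.711%, 0.691% and 0.535% of its length. The short arm had medians of 1290.5, 1176 and 1478.5 bp, narrower than the long arm in replicates 1 and 2, and 1, 1 and 3 peaks of at least 10 kb. Medians were 2085, 1647 and 2088 bp on chromosome 20. On chromosome 17 they were 1514, 1403 and 2013 bp, narrower than the long arm in replicate 1 only.

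**Figure D4:**
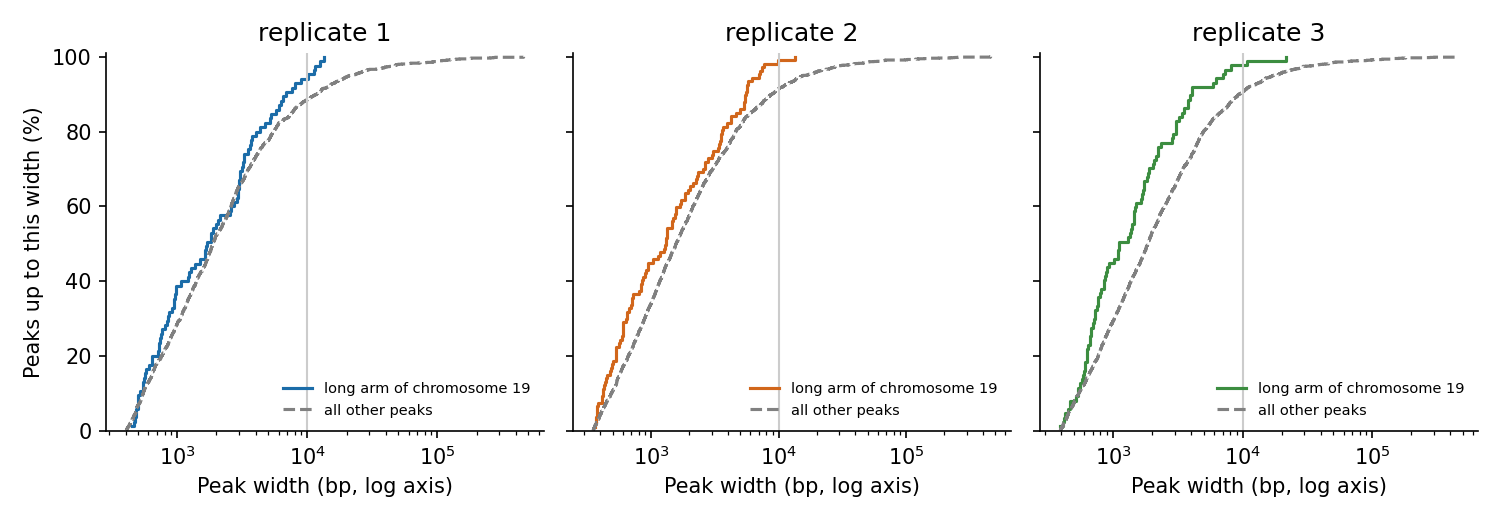
Cumulative share of peaks by width (log axis) for the long arm of chromosome 19 (solid) and all other peaks of the same list (dashed). The grey line marks 10 kb. At most 5.88% of the arm's peaks in any list reach 10 kb, against at least 8.496% of the other peaks.

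Recurrence between replicates depended on how a shared peak was defined. With an overlap of at least 1 bp, 36 of 85, 34 of 107 and 32 of 87 members were found in both other lists, or 42.4%, 31.8% and 36.8%, against 32.4%, 22.2% and 26.5% of all peaks. Compared with the peaks outside the arm, the share was higher in 3 of 3 lists, by 10.6, 10.1 and 10.8 percentage points (mean 10.5 ± 0.377, SD, n = 3; exact permutation p = 0.25, the smallest possible). The 3 shares count largely the same overlaps, once from each list. They are therefore not independent under any rule given here, and their SD is not a spread between independent replicates. The share on the arm was also above the short arm, by a mean of 13.0 points, chromosome 20, by 5.14, and chromosome 17, by 14.6. Requiring the overlap to span 50% of each peak, 21.0% ± 1.98 of members and 16.3% ± 3.44 of other peaks were shared (SD, n = 3). With summits within 100 bp of each other, the order turned in 3 of 3 lists, to 2.35%, 1.87% and 2.30% of members against 5.16%, 3.71% and 4.43% of other peaks. It also turned in 3 of 3 lists when each list was limited to a −log10 q of 5 or more, where 2 of 14, 2 of 29 and 2 of 27 members recurred, or 14.3%, 6.90% and 7.41% against 23.9%, 14.98% and 15.8%. Without replicate 1, the share found in the 1 list left was 3.06 points above that of other peaks, and it was below that of the short arm by 3.63 points and of chromosome 20 by 4.92.

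**Figure D5:**
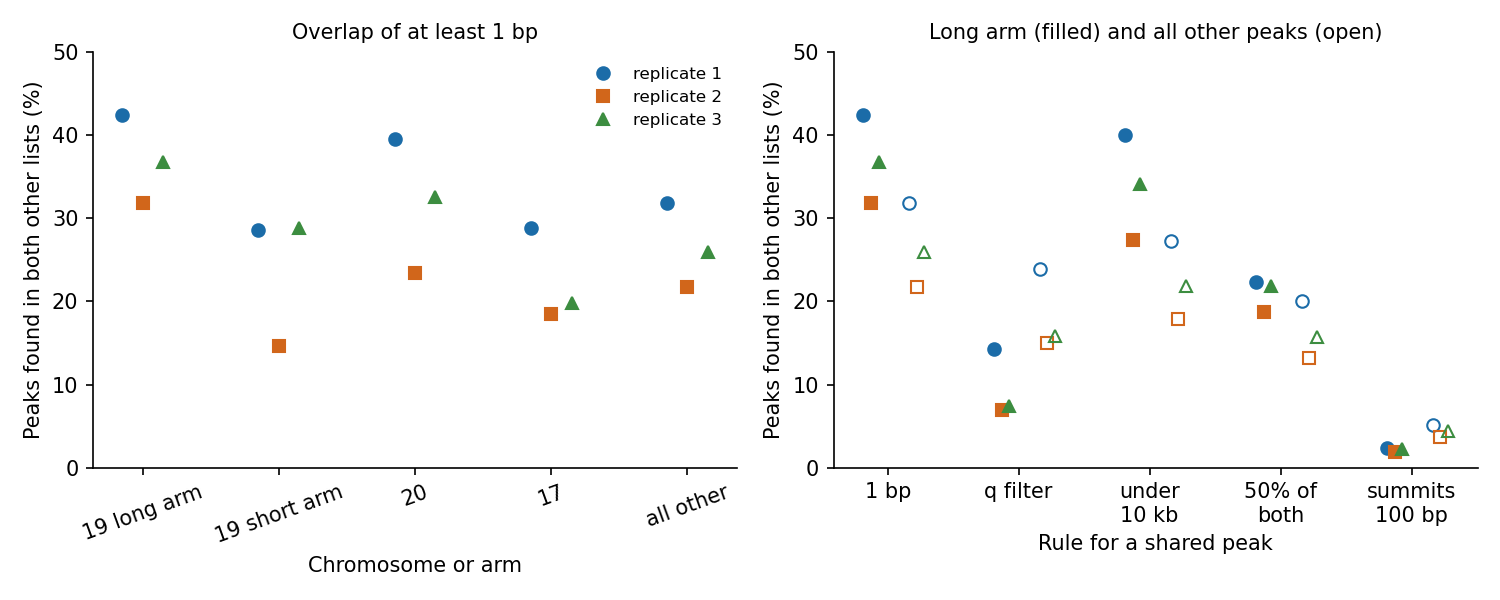
Share of peaks found in both other lists, by replicate. The left panel compares the long arm of chromosome 19 with the short arm, chromosomes 20 and 17 and all other peaks at an overlap of 1 bp, and the right panel sets the arm (filled) beside all other peaks (open) under 5 rules. The arm lies above the rest under 3 rules and below it with a −log10 q of at least 5 (q filter) and with summits within 100 bp.

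Joined over the lists, the members formed 171 union regions. Every list had a peak in 31 of them (18.1%), 2 lists in 30 and 1 list in 110, and 12.1% of all 3584 regions of the series had a peak in every list. The share was 11.2% on the short arm, 12.4% on chromosome 20 and 10.1% on chromosome 17. Regions of a single replicate numbered 25, 50 and 35 for replicates 1, 2 and 3, and replicate 2, the longest list, thus had the most. Only 13 regions were shared by replicates 1 and 2 alone, 8 by 1 and 3, and 9 by 2 and 3. Deep summits recurred more often. Of members with a pileup of 4 or 5, 22.7%, 10.5% and 6.67% were in both other lists, against 14.6%, 8% and 10.1% in the rest, so that the arm was below the rest in replicate 3. At 6 to 9 fragments the shares were 39.5%, 22.2% and 26.7% against 29.4%, 17.04% and 21.9%, higher on the arm in 3 of 3 lists. At 10 or more they were 64%, 51.2% and 81.5% against 66.6%, 50.5% and 59.9%, with the arm below the rest in replicate 1. The differences within these classes were not tested.

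Borders were compared where each list gave exactly 1 peak, in 23 of the 31 regions found in all 3 replicates. There the starts of the 3 peaks spanned a median of 368 bp, the ends 557 bp and the summits 646 bp. Elsewhere in the genome, 295 regions of this kind had medians of 199, 195 and 746 bp. A start or an end that agreed within 50 bp in all 3 lists was found in 1 of 23 regions on the arm (4.35%), the one at chr19:48254832-48256047, against 98 of 295 (33.2%) elsewhere, and 92 of 257 when every peak was under 10 kb. The count on the arm depends on this cutoff, since starts or ends spanned 60, 66, 83 and 91 bp in further regions. Shares at other cutoffs are not given here. The 8 regions with several peaks in a list were left out of this count, and in some of them starts also lay close, as at 41774209, 41774193 and 41774190 above. This comparison was chosen after the values were seen and was not tested.

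Within a peak, summits lay near the lower coordinate more often than near the higher one. Of members at least 1000 bp wide, 22 of 52, 18 of 59 and 15 of 48 had the summit within 100 bp of the start, and 4, 2 and 3 within 100 bp of the end. The rest of each list leaned the same way, with 28.7% ± 0.813 near the start and 5.05% ± 0.120 near the end, set beside 34.7% ± 6.61 and 5.78% ± 2.19 on the arm (SD, n = 3). Over all widths and either end, 39, 48 and 40 members (45.9%, 44.9% and 46.0%) had the summit within 100 bp of a border, against 38.4%, 40.2% and 38.3% of all peaks. The lean to the start is thus shared by the whole lists, and in replicates 2 and 3 the share near the start on the arm, 30.5% and 31.3%, was close to the 29.2% and 27.8% of the rest. Since peaks carry no strand, the lower coordinate cannot be read as either end of a transcript.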

How the data were processed

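Peak lists of 3 anti-RBM8A immunoprecipitates were analysed, 1 list per replicate. The tools named in the submitters' processing notes are MACS2, HISAT2, GATK, SAMtools and FastQC, without versions or settings, and the control sample is not stated. For each peak the authors deposited a fold (a ratio over the expected level), −log10 values of p and q, and a deposited score, not used, that is the −log10 q times 10 without decimals. The lowest −log10 q was 1.32, 1.36 and 1.32. The lists hold no read totals, so depth is unknown.

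Summit pileups were recovered as whole numbers up to 400 that gave both fold and −log10 p within 0.0005 under MACS2's formulas. This succeeded for all 279 members (1476, 2150 and 1800 peaks of the 3 lists), and was tested on 400 simulated peaks made with the same formulas, of which 100% were recovered. The simulated peaks had lower pileups and expected levels than the deepest summits of the arm, which that check does not cover. Bands are those of hg19 in the R package circlize. Peaks were joined where at least 1 bp overlapped, and into clusters at gaps up to 10 kb. The arm and the rest of each list were compared by exact sign-flip permutation over replicates.

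Named regions are those of all 3 replicates in the windows described (at most 8 each), the 10 highest by mean percentile rank of fold, the widest, and the 3 strongest of a single replicate. Further peaks named for their depth or position were picked after their values were seen. Members, windows and comparisons were chosen with earlier results of these data known. The software was matplotlib 3.10.9, scipy 1.17.1, pandas 2.3.3 and numpy 2.4.6 under Python 3.11.15.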

Additional observations from a re-analysis of the deposited data

How the results depend on the processing

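Of 127 values recomputed under alternatives, 107 kept their direction or stayed within 1.5 times. None of the permutation tests can pass 0.05 at 3 replicates, so this says nothing about significance. Differences below are means over replicates, arm minus other. Keeping peaks with a −log10 q of 5 or more, the recurrence difference was -8.71 percentage points from all other peaks, -10.1 from the short arm, -18.2 from chromosome 20 and -10.9 from chromosome 17. The median fold differed by -0.091 and the median −log10 q by -0.342, 2 union regions remained in all lists, and the windows from 39 and 41 Mb held means of 1 and 1.67 peaks. Fewer peaks are kept there by construction. With summits within 100 bp, the recurrence differences were -2.26, -4.91, -4.27 and -3.51 points in the same order. Without 1 replicate, recurrence in the list left differed by 3.06 to 11.6 points from other peaks, by -3.63 to 10.4 from the short arm and by -4.92 to 11.7 from chromosome 20, and the cause was not tested. Zinc finger windows widened by 0.5 Mb gave 0.124 peaks per Mb. The window from 39 Mb held 10.7 peaks with ACTN4 included and 3.67 when moved 0.5 Mb later. That from 41 Mb held 2.33 when moved 0.5 Mb earlier, and 2.33 with peaks within 10 kb counted once, where the window from 39 Mb held 4.33. No paired analysis was possible because the input samples have no peak list here, as far as immunoprecipitate against input is concerned. The arm and other peaks were paired within each list. Low pileups, mostly under 10 fragments, limit how firmly any single peak can be read.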
